A study of Mus musculus with 9 samples.

Results

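The genes described here write, read and erase histone acetylation or anchor the complexes that do so: the deacetylases Hdac1, Hdac2, Hdac3, Hdac5 and Hdac6, the acetyltransferases Kat2a and Kat2b, and the corepressor subunits Mbd3, Sin3a and Rbbp7. They were taken by platform gene symbol, with older synonyms brought up to date, and all 10 were on the array, with 11 probe sets (Kat2b had 2) among 12422 probe sets and 8251 named genes. RNA came from F9, a line of mouse embryonal carcinoma cells used as a model of endoderm formation, which retinoic acid sets off. The groups were cells given 0.5 µM retinoic acid (RA), cells given 0.07 µM trichostatin A (TSA), an inhibitor of histone deacetylases, and cells given medium with ethanol (vehicle), each for 24 h, with 3 oligonucleotide arrays per group. All samples are of this single line, and nothing in the labels says that the replicates are separate cultures, so the p-values reflect the spread among these arrays alone, which may be technical.

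Deacetylases remove acetyl groups from lysines of histone tails and are associated with repressed chromatin, while acetyltransferases add them. Hdac1 and Hdac2 are catalytic subunits of the Sin3 and NuRD complexes, of which Sin3a is the scaffold of the first and Mbd3 a subunit of the other, while Rbbp7 binds histones in both. Hdac3 works in the NCoR complexes, which retinoic acid receptors recruit when no ligand is bound. Kat2a (also called Gcn5) and Kat2b (also called Pcaf) are the alternative acetyltransferases of the SAGA and ATAC coactivator complexes, and TSA blocks the zinc-containing active site of the deacetylases.

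Promoter windows are shown for the genes on which the results turn: Kat2b and Mbd3, which were lower with TSA, and Hdac6, the member with the highest TSA values. A RefSeq table (GRCm38.p6) held windows for 8 of the 10 members, each from 250 bases before to 50 bases after a gene start. Capitals mark matches, on either strand, to the GC box (GGGCGG), the CCAAT box (those letters), the element TATAAA, here called the TATA box, or the E box (CACGTG), and no matches overlapped in these windows.
Kat2b, chr17:53566721-53567020, plus strand: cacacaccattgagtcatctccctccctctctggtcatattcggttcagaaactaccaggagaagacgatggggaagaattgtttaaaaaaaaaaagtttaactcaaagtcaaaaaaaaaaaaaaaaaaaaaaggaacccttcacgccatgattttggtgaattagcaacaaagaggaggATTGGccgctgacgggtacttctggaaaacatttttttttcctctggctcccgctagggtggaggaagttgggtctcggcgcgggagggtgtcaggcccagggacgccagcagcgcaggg
Mbd3, chr10:80399482-80399781, minus strand: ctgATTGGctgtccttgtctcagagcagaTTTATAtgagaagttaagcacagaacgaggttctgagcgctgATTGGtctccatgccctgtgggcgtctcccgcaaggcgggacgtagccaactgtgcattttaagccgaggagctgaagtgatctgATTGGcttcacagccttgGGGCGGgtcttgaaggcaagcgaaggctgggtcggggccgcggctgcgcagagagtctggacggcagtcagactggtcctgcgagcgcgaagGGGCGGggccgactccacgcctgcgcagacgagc
Hdac6, chrX:7947840-7948139, minus strand: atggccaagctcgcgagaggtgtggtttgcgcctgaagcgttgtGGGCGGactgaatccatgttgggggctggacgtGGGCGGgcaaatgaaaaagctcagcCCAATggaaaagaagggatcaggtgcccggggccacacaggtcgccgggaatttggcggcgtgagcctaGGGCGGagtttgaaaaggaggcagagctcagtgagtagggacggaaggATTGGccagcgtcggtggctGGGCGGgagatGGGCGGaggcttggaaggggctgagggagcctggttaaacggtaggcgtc

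The Kat2b window held 1 CCAAT box and no GC box, and its GC content was 47.0%, below the median of 52.7% over all 32851 windows. A window at a second Kat2b start held none of the motifs. The Mbd3 window held 2 GC boxes, 3 CCAAT boxes and 1 TATA box, with 60.7% GC. The Hdac6 window held 5 GC boxes and 2 CCAAT boxes, with 62.0% GC. Of all windows, 35.7% held a GC box, 37.4% a CCAAT box, 13.6% a TATA box and 7.15% an E box, so single matches of the first 2 kinds are common, and a match is a description of the letters only. Kat2a, the relative of Kat2b, had no match to any of the motifs in its window.

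Each value below is the authors' ratio of an array to the mean of the 3 vehicle arrays for that probe set, so levels cannot be compared between genes. Tests were limma fits over all 12422 probe sets on log2(ratio + 0.05) with Benjamini-Hochberg adjustment, and a probe set with an adjusted p under 0.05 was counted as changed; log2 changes are given on this scale, which shrinks the changes of low ratios. The median of all probe sets was -0.12 in RA and -0.17 in TSA against vehicle, and centring each array on its median moved these to 0.035 and 0.029. Vehicle replicate 3 stood apart from the other vehicle arrays. Its 18S rRNA control signal was 2.40 times the vehicle mean, against 0.538 and 0.0730 on vehicle replicates 1 and 2. RA replicate 3, at 0.961, was the next highest, while RA replicates 1 and 2 had 0.0723 and 0.0515. The TSA arrays had 0.0336, 0.0427 and 0.0531, below every vehicle array. Whether the lower 18S signal of the TSA arrays bears on their changes was not tested. Vehicle replicate 3 was the lowest vehicle array in 8 of the 11 member probe sets, a larger share than the 42.3% of all probe sets. The median SD of the members on the log2 scale was 0.18 in RA, 0.13 in TSA and 0.24 in vehicle (n = 3 each).

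With TSA, Kat2b and Mbd3 fell and no member rose. These were 2 of the 11 member probe sets, against 3.48% of all probe sets changed in this comparison and 1.27% changed in the lower direction. The other members held close to the vehicle level or varied too much between arrays to pass, and Hdac6 was higher on all TSA arrays without passing. In RA no member probe set changed, against 1.36% of all probe sets. Log2 changes in RA were below 0 in 9 of the 11 member probe sets, against 7736 of all 12422. Kat2b and the class I deacetylases were among these 9. In bulk RNA, fewer cells expressing a gene and less RNA per cell cannot be told apart.

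**Figure D1:**
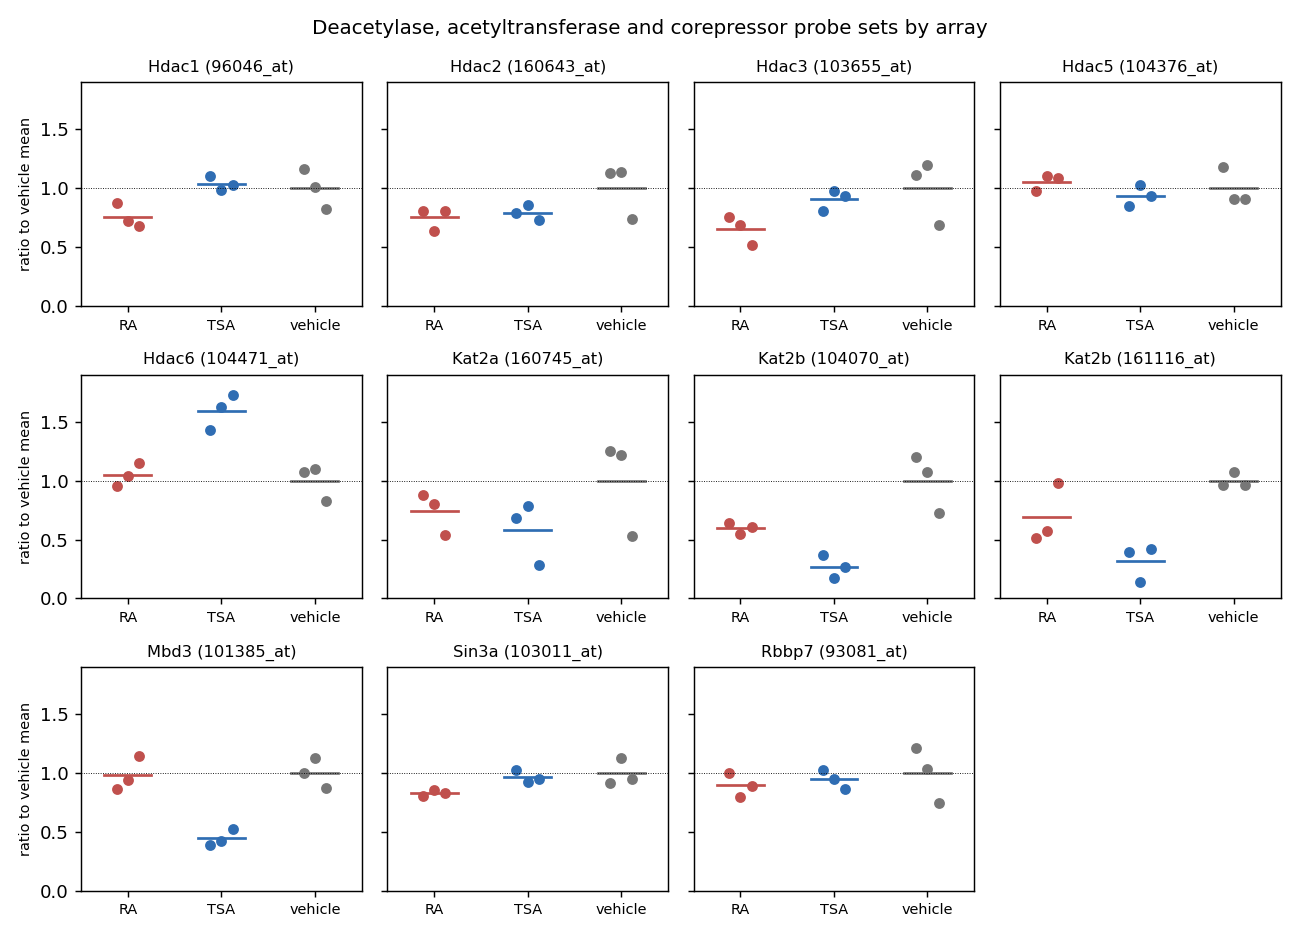
Ratio to the vehicle mean (vertical axis, linear) of each of the 11 probe sets on the RA, TSA and vehicle arrays. Points are arrays, horizontal bars group means and the dotted line the vehicle mean of 1. Both Kat2b probe sets and Mbd3 have TSA arrays below all vehicle arrays, and Hdac6 has TSA arrays above them.

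Kat2b showed the largest change among the members. Its first probe set had ratios of 0.368, 0.173 and 0.263 on the TSA arrays, against 1.20, 1.07 and 0.722 on the vehicle arrays. Every TSA array lay below every vehicle array, and the lowest vehicle array was replicate 3. The log2 change was -1.74 ± 0.28 (SE, n = 3 each), or 0.299 times vehicle, with a limma adjusted p of 0.0156. The second probe set had ratios of 0.395, 0.140 and 0.417 in TSA, against 0.960, 1.07 and 0.966 in vehicle. The groups again did not overlap, and in both probe sets TSA replicate 2 was the lowest array. The log2 change of the second probe set was -1.62 ± 0.38 (SE), close in size to that of the first, but its limma adjusted p of 0.0562 did not pass. Averaged over both probe sets, the gene changed by -1.68 ± 0.29 (SE), with an adjusted p of 0.0173 in the limma fit over gene averages. The call of the first probe set was lost without vehicle replicate 2, TSA replicate 2 or TSA replicate 3, with limma adjusted p of 0.0654, 0.0645 and 0.0563, while its log2 change lay between -1.96 and -1.51 in the 9 fits that each leave out 1 array.

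In RA, the first Kat2b probe set had ratios of 0.638, 0.550 and 0.605, against 1.20, 1.07 and 0.722 in vehicle. All RA arrays lay below the vehicle arrays, yet the log2 change of -0.67 ± 0.28 (SE, n = 3 each) did not pass, with a limma adjusted p of 0.365. The second probe set had ratios of 0.513, 0.572 and 0.984 in RA, and RA replicate 3 lay inside the vehicle range. Set directly against each other, RA exceeded TSA in both Kat2b probe sets, with log2 differences of 1.07 ± 0.28 and 1.06 ± 0.38 (SE). Neither passed, with limma adjusted p of 0.0803 and 0.191.

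Kat2a, the other acetyltransferase of the SAGA complexes, was among the most variable members. Its ratios were 0.684, 0.785 and 0.285 in TSA, against 1.25, 1.22 and 0.531 in vehicle. TSA replicate 3 and vehicle replicate 3 were both far below their groups, and the groups overlapped. The log2 change of -0.74 had a 95% interval from -1.74 to 0.25, which includes no change as well as a fall as large as that of the second Kat2b probe set. In RA the ratios were 0.879, 0.802 and 0.540, inside the vehicle range, with a log2 change of -0.35 and an interval from -1.34 to 0.65. These values rested on single arrays. The RA change was -0.73 without vehicle replicate 3 and -0.14 without vehicle replicate 1, and the TSA change was -1.12 without vehicle replicate 3 and -0.33 without TSA replicate 3.

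Mbd3, a methyl-CpG-binding domain protein of NuRD, was the only member past the threshold in more than a single comparison. Its ratios were 0.393, 0.423 and 0.527 in TSA, against 0.998, 1.13 and 0.872 in vehicle. The groups were separated by a wide gap, with all TSA arrays close together. The log2 change was -1.08 ± 0.20 (SE, n = 3 each), or 0.473 times vehicle, with a limma adjusted p of 0.0274. In RA the ratios were 0.863, 0.943 and 1.15, within the spread of the vehicle arrays apart from small excursions at both ends, and the log2 change of -0.024 had an interval from -0.49 to 0.44. RA exceeded TSA by 1.05 ± 0.20 (SE), with a limma adjusted p of 0.0263. This was the 1 member probe set that differed between the treatments, against 3.91% of all probe sets. Without 1 array, the TSA call of Mbd3 held in 3 of 9 fits, with limma adjusted p from 0.0329 to 0.126 and log2 changes from -1.19 to -0.99. Dropping vehicle replicate 1 or 2 (0.0644 and 0.109), RA replicate 2 (0.0545) or any TSA array (0.102, 0.126 and 0.0565 for replicates 1 to 3) ended it, all as limma adjusted p. The call of the difference between RA and TSA also held in 3 of 9 such fits, those without a vehicle array, and its limma adjusted p was between 0.0613 and 0.0839 when an RA array was dropped and between 0.0561 and 0.108 when a TSA array was dropped. The log2 difference between RA and TSA lay between 0.94 and 1.17 in these fits.

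Hdac6, a largely cytoplasmic deacetylase that acts on tubulin, was the only member with every TSA array above every vehicle array. Its ratios were 1.43, 1.62 and 1.73 in TSA, against 1.07, 1.10 and 0.826 in vehicle. The log2 change was 0.65 ± 0.19 (SE, n = 3 each), or 1.57 times vehicle, and the limma adjusted p of 0.107 did not pass. Centring the arrays gave 0.85, with a limma adjusted p of 0.0429. Gene averages apart, this was the 1 of 18 alternatives in which Hdac6 passed in TSA. It passed in 0 of the 9 fits without 1 array, with limma adjusted p from 0.133 to 0.295. In RA the ratios were 0.956, 1.04 and 1.15, around the vehicle mean, with a log2 change of 0.071 and an interval from -0.36 to 0.51. RA lay below TSA by a log2 difference of -0.58 ± 0.19 (SE), with a limma adjusted p of 0.160.

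**Figure D2:**
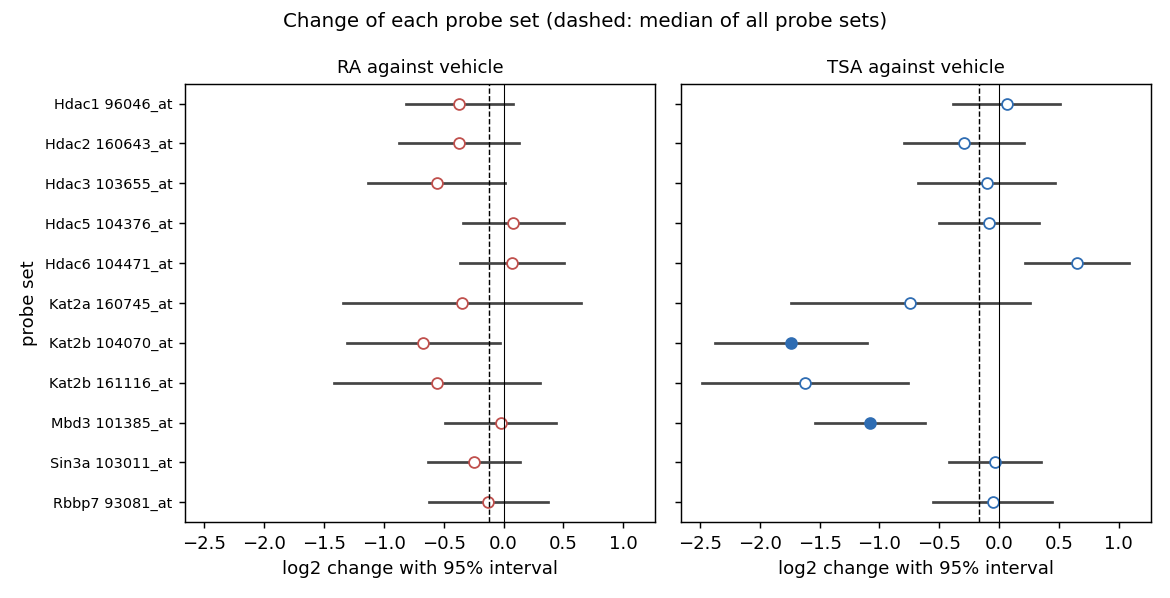
Log2 change against vehicle of each probe set in RA and in TSA (horizontal axis), with 95% intervals from the limma fit. Filled points passed the test, and the dashed line is the median of all probe sets. Only the first Kat2b probe set and Mbd3 in TSA are filled.

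Of the class I deacetylases, the nuclear enzymes of the corepressor complexes, Hdac1 and Hdac3 had TSA values near those of vehicle. Hdac2 had a lower mean ratio of 0.792 in TSA, close to its 0.752 in RA, and did not pass (limma adjusted p = 0.509 in TSA). Hdac1 had ratios of 1.10, 0.983 and 1.03 in TSA, against 1.16, 1.01 and 0.825 in vehicle. Its log2 change of 0.064 had a 95% interval from -0.38 to 0.51, which excludes a change as large as that of Kat2b. Hdac2, its close relative in the same complexes, had ratios of 0.786, 0.858 and 0.732 in TSA, against 1.13, 1.13 and 0.738 in vehicle. The lowest vehicle array, replicate 3, lay among the TSA arrays, and the log2 change was -0.30 with an interval from -0.80 to 0.21. Hdac3 had ratios of 0.803, 0.978 and 0.938 in TSA, against 1.11, 1.20 and 0.691 in vehicle. All its TSA arrays lay inside the vehicle range, and the log2 change of -0.10 had an interval from -0.68 to 0.47.

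In RA all 3 class I enzymes had lower mean ratios than vehicle, and none passed. Hdac1 had ratios of 0.877, 0.721 and 0.679 in RA, with a log2 change of -0.37 ± 0.20 (SE, n = 3 each) and a limma adjusted p of 0.485. Hdac2 had ratios of 0.806, 0.640 and 0.809 in RA, with the same log2 change of -0.37 and a limma adjusted p of 0.539. Hdac3 had ratios of 0.752, 0.685 and 0.520 in RA, with a log2 change of -0.56 ± 0.25 (SE) and a limma adjusted p of 0.405. For each of them vehicle replicate 3 overlapped the RA arrays, and only vehicle replicates 1 and 2 lay above all of them. Relative to the median of all probe sets, with arrays centred, the changes were smaller, -0.21 for Hdac1, -0.21 for Hdac2 and -0.40 for Hdac3. Hdac1 and Hdac3 had RA arrays below all TSA arrays, with log2 differences of -0.44 and -0.46 and limma adjusted p of 0.307 and 0.420.

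Hdac5, a class IIa enzyme that shuttles between nucleus and cytoplasm, stayed near the vehicle mean in both treatments. Its ratios were 0.979, 1.10 and 1.08 in RA and 0.850, 1.02 and 0.937 in TSA, against 1.18, 0.909 and 0.912 in vehicle. The log2 changes were 0.082 (95% interval -0.34 to 0.50) in RA and -0.084 (-0.50 to 0.34) in TSA.

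The remaining corepressor subunits also stayed near the vehicle level. Sin3a, the scaffold of the Sin3 complex, had ratios of 1.03, 0.926 and 0.954 in TSA, against 0.917, 1.13 and 0.950 in vehicle. The TSA arrays lay inside the vehicle range, and the log2 change of -0.037 had an interval from -0.42 to 0.35. In RA the Sin3a ratios were 0.802, 0.858 and 0.831, a tight group just below the vehicle arrays, with a log2 change of -0.25 ± 0.17 (SE, n = 3 each) and a limma adjusted p of 0.606. Rbbp7, the histone-binding subunit shared by Sin3 and NuRD, had ratios of 1.00, 0.795 and 0.892 in RA and 1.03, 0.950 and 0.865 in TSA, against 1.22, 1.03 and 0.750 in vehicle. Every treated array of Rbbp7 lay inside the vehicle range, and its log2 changes were -0.13 in RA and -0.051 in TSA.

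Over the 11 member probe sets, the TSA and vehicle arrays did not overlap in 4 (3 lower, 1 higher), against 26.3% of all probe sets. RA and vehicle arrays did not overlap in 2, both lower, against 17% of all probe sets. RA and TSA arrays did not overlap in 7, 4 lower and 3 higher in RA, against 27.3%. For any such separation the two-sided exact permutation p was 0.1, the smallest that 3 arrays against 3 allow. The median log2 change of the members was -0.35 in RA and -0.10 in TSA, against -0.12 and -0.17 over all probe sets. Leaving out vehicle replicate 3 and RA replicate 3, the arrays with the highest 18S signal, the TSA calls of Kat2b and Mbd3 held, and Mbd3 no longer passed between RA and TSA (limma adjusted p = 0.0611).

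**Figure D3:**
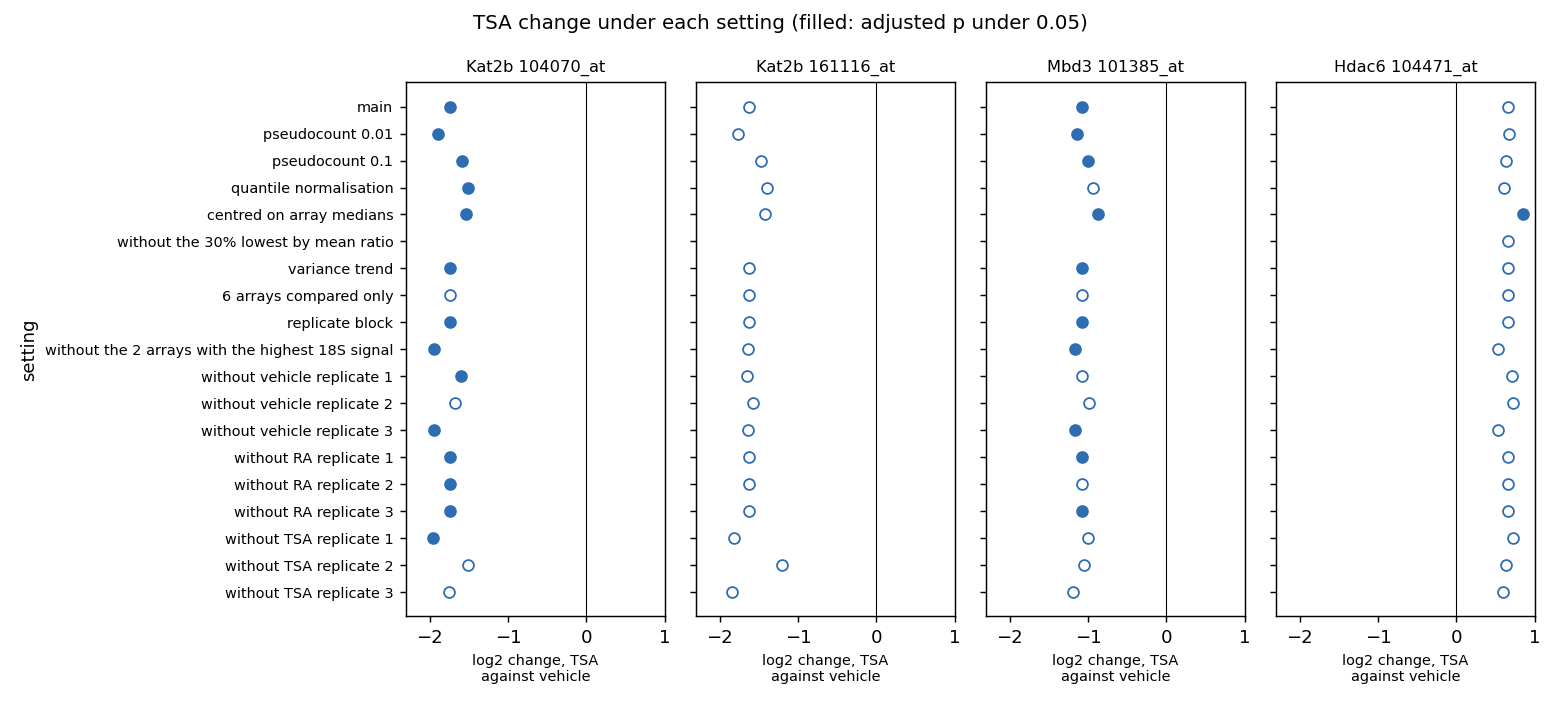
Log2 change in TSA against vehicle (horizontal axis) of Kat2b, Mbd3 and Hdac6 probe sets under each processing setting (rows). Filled points have a limma adjusted p under 0.05; the filter on low ratios removed the Kat2b and Mbd3 probe sets. The direction is the same in all settings shown, and the calls of the first Kat2b probe set and Mbd3 come and go with single arrays.

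By likeness of profile, the genes closest to the first Kat2b probe set were Bcat2, an enzyme of branched-chain amino acid breakdown, Msmo1, an enzyme of cholesterol synthesis, and Fkbp9, a peptidyl-prolyl isomerase. Their log2 values, each centred on its own mean, differed from those of Kat2b by root mean squares of 0.149, 0.244 and 0.251 over the 9 arrays, against a median of 0.830 over all probe sets and 0.345 for the second Kat2b probe set. For Mbd3 the nearest were Rgs19, a regulator of G protein signalling, Hnrnpl, a splicing factor, and Erg28, known in yeast as a scaffold of sterol synthesis enzymes, at 0.142, 0.159 and 0.188, against a median of 0.647. These genes had TSA log2 changes from -1.94 to -1.70 around Kat2b and from -0.95 to -0.84 around Mbd3.

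Beyond the members, 7 lists of related genes were examined: other deacetylases, other acetyltransferases, further subunits of Sin3, of NuRD and of the SAGA and ATAC complexes, corepressors of the CoREST and NCoR type with their adaptors, and readers of acetyl-lysine. Of their 125 genes, 65 were measured with 82 probe sets. In TSA none of the 82 passed in the limma fit, against 3.48% of all probe sets. An unadjusted limma p under 0.05 was found for 10, a smaller share than the 19.6% of all probe sets. In RA 2 fell and none rose, both in the CoREST, NCoR and adaptor list, and between the treatments 1 was higher and 3 were lower in RA. Over all probe sets 1.36% changed in RA, 0.427% in the lower direction, and 3.91% changed between the treatments. Counted in either direction, the lists lay near these shares in RA and between the treatments. The 2 that fell in RA were above the share for the lower direction, a difference that was not tested. Their median log2 change was -0.16 in both RA and TSA, against -0.12 and -0.17 over all probe sets.

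Ctbp2, a corepressor that links DNA-binding repressors to deacetylase and demethylase complexes, fell in RA. At a first probe set it had ratios of 0.305, 0.315 and 0.228 in RA, against 1.14, 0.998 and 0.867 in vehicle, far below the vehicle range on every array. The log2 change was -1.66 ± 0.20 (SE, n = 3 each), with a limma adjusted p of 0.00746, and the call held in 9 of 9 fits without 1 array. A second probe set had ratios of 0.351, 0.358 and 0.142 in RA, against 1.34, 1.02 and 0.641 in vehicle, a log2 change of -1.68 ± 0.36 (SE) that did not pass (limma adjusted p = 0.0738) but did without vehicle replicate 3 (0.0499). In TSA the first probe set stayed at 1.16, 1.02 and 0.895, and RA lay below TSA in both, with log2 differences of -1.69 and -2.17 and limma adjusted p of 0.00443 and 0.0156.

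Runx1t1, the corepressor also known as Eto that binds NCoR and Sin3a, fell in RA too. Its ratios were 0.153, 0.196 and 0.326 in RA and 0.881, 0.917 and 0.864 in TSA, against 1.01, 1.01 and 0.984 in vehicle. Every RA array lay far below the other arrays, and the TSA arrays lay just below the vehicle arrays. The log2 change in RA was -1.98 ± 0.24 (SE, n = 3 each), with a limma adjusted p of 0.00717, and the call held in 9 of 9 fits without 1 array. Fitted on the RA and vehicle arrays alone, the limma adjusted p was 0.0512. Ski, a corepressor of Smad and retinoid receptor targets, had ratios of 2.56, 2.32 and 1.87 in RA and 1.12, 1.03 and 0.791 in TSA, against 1.21, 0.969 and 0.821 in vehicle. All RA arrays lay above the rest. Its log2 change of 1.14 ± 0.23 (SE) in RA did not pass (limma adjusted p = 0.0581), although centring the arrays gave 1.29 with a limma adjusted p of 0.0350, while the difference of 1.16 from TSA did (limma adjusted p = 0.0281). That call ended without vehicle replicate 2, RA replicate 1 or 2, or any TSA array, with limma adjusted p from 0.0566 to 0.108.

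**Figure D4:**
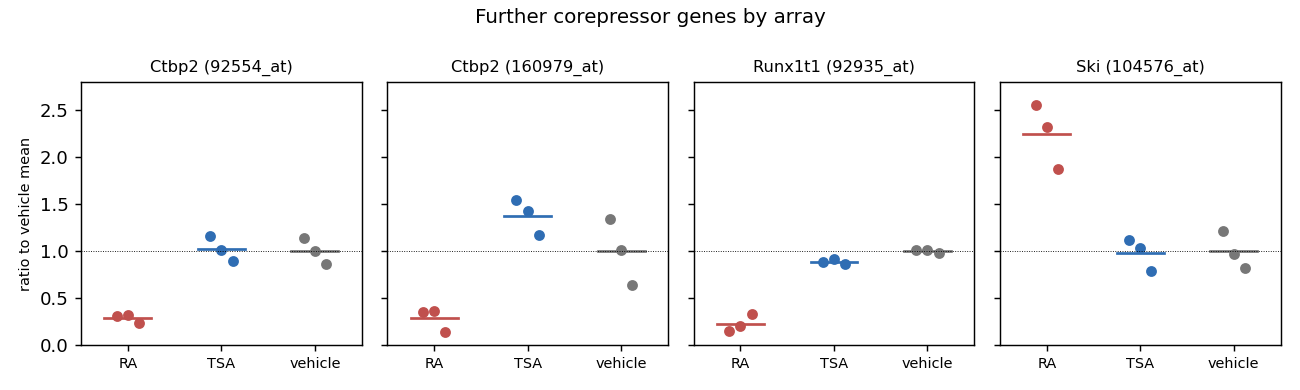
Ratio to the vehicle mean (vertical axis, linear) of Ctbp2 (both probe sets), Runx1t1 and Ski on the RA, TSA and vehicle arrays. Points are arrays and bars are group means. Ctbp2 and Runx1t1 have RA arrays below all others, and Ski has RA arrays above all others.

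Ctbp1, the paralogue of Ctbp2, had the smallest p among the corepressors in TSA. Its ratios were 0.491, 0.376 and 0.435 on the TSA arrays and 1.24, 0.907 and 0.821 on the RA arrays, against 1.25, 1.01 and 0.745 on the vehicle arrays. The TSA arrays lay below all others, and the RA arrays lay inside the vehicle range. The log2 change of -1.10 ± 0.25 (SE, n = 3 each) missed the threshold, with a limma adjusted p of 0.0530. Without vehicle replicate 3 it was -1.28, with a limma adjusted p of 0.0352. Ctbp1 was higher in RA than in TSA by 1.09 (limma adjusted p = 0.0510), and this passed without vehicle replicate 1 or 3 (limma adjusted p of 0.0441 and 0.0324). In the other lists the smallest p in TSA belonged to Sirt2, an NAD-dependent deacetylase (0.83, adjusted p = 0.155), Cdk2ap1, a NuRD subunit (-0.74, 0.104), Dr1, a subunit of ATAC (-0.59, 0.135), Brd3, a reader of acetyl-lysine (-0.70, 0.178), Ogt, a glycosyltransferase that binds Sin3a (-0.54, 0.281), and Clock, a circadian transcription factor with reported acetyltransferase activity (-0.35, 0.357), all limma log2 changes with adjusted p. In RA they were the mitochondrial deacetylase Sirt3 (-0.87, adjusted p = 0.162), Dr1 (-0.72, 0.132), Hat1, which acetylates newly made histones (-0.61, 0.342), Baz1b, a chromatin remodelling subunit with a bromodomain (1.32, 0.318; 0.17, 0.775 at its other probe set), Sap30l (-0.50, 0.497) and the NuRD remodeller Chd4 (-0.61, 0.427), on the same scale by limma. Between the treatments the smallest adjusted p in these other lists was 0.106, for the acetyltransferase Crebbp, with a log2 difference of 1.06 by limma. None of these passed. The 7 measured genes used as checks of the treatments were chosen with earlier results of these data known, so their counts are no independent test. Of their 9 probe sets, 7 rose in TSA and 3 in RA, against 2.21% and 0.934% of all probe sets. Crabp2 and Stra8 rose in both treatments. In TSA a Cdkn1a probe set (limma adjusted p = 0.0758) and Cyp26a1 (0.136) did not pass. The chaperone gene Clu, known to respond to deacetylase inhibitors, had TSA ratios of 14.5, 28.8 and 16.1 at 1 probe set and 5.52, 10.1 and 6.97 at the other.

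Of 3 marker lists of cell state, only that of undifferentiated embryonal carcinoma separated both treatments from vehicle. Its mean log2 value over 14 probe sets ran from -0.82 to -0.71 on the RA arrays and from -0.84 to -0.57 on the TSA arrays, against 0.0035 to 0.073 in vehicle. In this list Tcl1, Tdgf1, Utf1 and Zfp42 fell and Alpl rose in RA. In TSA Tdgf1, Utf1 and, at a single probe set, Gdf3 fell. The other Gdf3 probe set did not pass (log2 change -0.35, limma adjusted p = 0.644). For 21 endoderm probe sets the mean ran from 0.34 to 0.52 in RA and from -0.20 to -0.047 in TSA, against -0.38 to 0.40 in vehicle, overlapping it in both treatments. Sox7 and, at a single probe set, Gata6 rose in RA. The other Gata6 probe sets did not pass (log2 changes of 1.65 and 0.38, limma adjusted p of 0.101 and 0.817). In TSA only Lama1 rose, while 16 of the 21 endoderm probe sets had log2 changes below 0, none past the threshold. For 19 fibroblast probe sets the mean ran from -0.36 to -0.068 in RA and from 0.32 to 0.58 in TSA, against -0.49 to 0.54 in vehicle, where replicate 3 was the highest. Both treatments overlapped vehicle here as well. Thy1 rose in TSA, as did Col1a1 and Col5a1 at a single probe set each. The other probe sets of Col1a1 (log2 change 0.59, limma adjusted p = 0.455) and Col5a1 (0.095, 0.847) did not pass. Of the 19 fibroblast probe sets, 7 had TSA log2 changes below 0, none past the threshold. Because the ratios hold no brightness, the presence of these cell types cannot be read from them, and their part in the changes of Kat2b, Mbd3, Ctbp2 and Runx1t1 was not tested.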

How the data were processed

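RNA of 9 F9 samples was hybridised to Affymetrix arrays at a core facility and the raw data were entered into GeneSpring, per the labels. The deposited values are linear ratios to the vehicle mean: the 3 vehicle arrays average 1, within 1e-05, at each of 12488 probe sets. How the authors summarised and scaled the arrays is, for the sources used here, not given, and the ratios keep no brightness. The 66 control probe sets were left out, and 12422 were tested. Symbols came from a platform annotation (1 symbol for 10833 probe sets, several for 396, none for 1193), brought up to date by Entrez ID from a RefSeq table; probe sets with several symbols name no gene here. Array medians ran from 0.821 to 1.02, and the ratios were not scaled further.

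A limma fit (version 3.58.1, R 4.3.3) of log2(ratio + 0.05) over all 9 arrays gave 3 comparisons with 6 residual degrees of freedom, adjusted over all probe sets, with no filter on low values. The procedure was tested on simulated data. Sample titles gave the groups and the replicate numbers. Precision is limited by the number of arrays. The members, lists and alternatives were chosen with earlier results of these data known. Of the wider lists, genes past the threshold in any comparison were named, and otherwise the gene with the smallest p of each list; likeness named the 3 nearest genes. Same-numbered arrays' deviations from their group means correlated at -0.032 to 0.289, not over 0.1 in every pair, so the numbers were not taken to pair the samples. The replicate 3 arrays did correlate over 0.1 in each pair, at 0.289 (RA with vehicle), 0.237 (TSA with vehicle) and 0.190 (RA with TSA). The source of this was not tested, and a fit with a replicate block is given below.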

Additional observations from a re-analysis of the deposited data

Results flagged for a closer look

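The response to RA and the response to TSA differed, by the direct comparison of the treated arrays (limma, Benjamini-Hochberg adjustment), for 1 member and for 3 corepressor genes outside the members. Over all probe sets 3.91% differed in this comparison. Mbd3 was higher in RA than in TSA by 1.05 on the log2 scale (adjusted p = 0.0263), with all 3 RA arrays above all 3 TSA arrays. Arrays of these groups did not overlap, in either direction, in 27.3% of all probe sets. The call of Mbd3 held in 3 of 9 limma fits without 1 array, with adjusted p from 0.0244 to 0.108. Ski was also higher in RA, by 1.16 (adjusted p = 0.0281), and held in 3 of 9 limma fits without 1 array, with adjusted p of 0.0566 without vehicle replicate 2, 0.108 and 0.0974 without RA replicates 1 or 2, and 0.0688, 0.0954 and 0.105 without TSA replicates 1, 2 or 3. Ctbp2 was lower in RA than in TSA at both probe sets, by log2 differences of -2.17 and -1.69 (adjusted p = 0.0156 and 0.00443), and held in 7 and 9 of 9 such fits; for the probe set with the larger difference it was 0.0630 and 0.0695 without TSA replicates 1 or 2. Runx1t1 was lower in RA by a log2 difference of -1.82 (adjusted p = 0.00605), and held in 9 of 9 fits. With quantile normalisation Mbd3, Ski (limma adjusted p = 0.104) and the Ctbp2 probe set with the larger difference (0.0613) no longer passed.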

How the results depend on the processing

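Of 609 single values of the members under 19 alternatives, 561 kept their direction and their side of the threshold, 20 lost the call, 2 gained it and 26 changed sign, none of them a value past the threshold in the fit as reported. Most of these values were not called to begin with. Gene averages apart, the first Kat2b probe set kept its TSA call in 13 of 17 alternatives. Mbd3 kept its call in 9 of 17 in TSA and in 9 of 17 between RA and TSA. The cause of the changes below was not tested unless named.

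For the members, the count changed in TSA was 2 and fell to 1 with quantile normalisation, to 0 with the 6 arrays compared and to 0 with the 30% filter on the mean ratio, which takes out genes that fell and kept 5 of the 11 probe sets. Centring gave 3. Between RA and TSA the count of 1 became 0 with quantile normalisation, with the filter and without the arrays with the highest 18S signal. Without 1 array it ran from 0 to 2 in TSA and from 0 to 1 between RA and TSA; in RA it was 0 in all alternatives run. Over all probe sets the count in RA was 169, and 87 with quantile normalisation, 111 with a variance trend, 61 with the 6 arrays and 98 without the arrays with the highest 18S signal; in TSA it was 432, and 108 with quantile normalisation and 168 with the 6 arrays; between RA and TSA it was 486, and 152 with quantile normalisation. Without 1 array these counts ran from 54 to 209, from 107 to 494 and from 167 to 624. In the wider lists the RA count of 2 became 0 with the filter, 1 with the 6 arrays, and 4 with the replicate block, where Ski (limma adjusted p = 0.0296) and the second Ctbp2 probe set (0.0286) passed too; it was 3 with centring, with gene averages and without the arrays with the highest 18S signal, and ran from 2 to 3 without 1 array. The TSA count of 0 became 1 with gene averages, with the replicate block, without the arrays with the highest 18S signal, and, at most, without 1 array (range 0 to 1); the gene was Ctbp1 each time (limma adjusted p of 0.0407, 0.0372, 0.0409 and, without vehicle replicate 3, 0.0352). The count of 4 between RA and TSA became 2 with quantile normalisation and 2 with the filter, and ran from 2 to 5 without 1 array.

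Signs changed for these values. With quantile normalisation, the log2 change became 0.029 for Mbd3 in RA, and 0.11 for Hdac5, 0.049 for Sin3a and 0.084 for Rbbp7 in TSA. With centring it became 0.13 for Mbd3 and 0.027 for Rbbp7 in RA, and 0.096 for Hdac3, 0.12 for Hdac5, 0.16 for Sin3a and 0.15 for Rbbp7 in TSA. Without the arrays with the highest 18S signal it became -0.12 for Hdac6 in RA and -0.061 for Hdac1 in TSA.
Without 1 array the log2 changes in RA ran from -0.31 to 0.019 for Rbbp7, -0.13 to 0.064 for Mbd3 and -0.054 to 0.14 for Hdac6. In TSA they ran from -0.15 to 0.035 for Hdac5, -0.23 to 0.098 for Rbbp7, -0.34 to 0.040 for Hdac3, -0.094 to 0.051 for Sin3a and -0.061 to 0.18 for Hdac1. Between RA and TSA they ran from -0.13 to 0.030 for Hdac2, -0.16 to 0.00070 for Rbbp7 and -0.013 to 0.65 for Kat2a.

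The replicate block changed no call of a member, with limma adjusted p in TSA of 0.0256 for the first Kat2b probe set and 0.0444 for Mbd3. In all, 6 of 9 arrays correlated best with an array of their own number. Signal over background cannot be checked from ratios.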
